A study of Drosophila melanogaster with 2 samples.

Results

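The genes described here are 10 Drosophila melanogaster genes of the unfolded protein response, Ire1, PEK, Atf6, Xbp1, crc, Cnx99A, Calr, Hsc70-3, Gp93 and Hrd3, of 13945 protein-coding genes on the 6 chromosome arms analysed. They were taken by name from this pathway, with earlier results of these data known. Each gene was given every summit of the pooled thresholded Nf-YA peak list that lay in its body or within 5 kb of it, and 9 of 3354 summits were assigned in this way. Nf-YA is the subunit through which the NF-Y trimer reads the CCAAT box. The data were peak lists from chromatin immunoprecipitation with sequencing (ChIP-seq) of embryos aged 0 to 24 h that carried an eGFP-tagged Nf-YA insertion, precipitated with an antibody to GFP after sonication to 200 to 800 bp. There was 1 group of 2 biological replicates, both from the Nf-YA-GFP strain, with no untagged or stressed group, and a control named in the labels was not analysed here. Whole embryos of all these ages were combined and their sex was not recorded, so a peak cannot be assigned to a tissue or a stage. Each library's depth is unknown.

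The unfolded protein response raises the folding capacity of the endoplasmic reticulum (ER) when unfolded proteins build up there, and it is also active in secretory tissues during normal development. Ire1 is an ER membrane kinase and RNase that splices the Xbp1 mRNA, PEK (PERK in mammals) is a membrane kinase that phosphorylates eIF2alpha and so favours translation of the factor crc (ATF4 in mammals), and Atf6 is a membrane-tethered transcription factor. Their targets include ER chaperones and the machinery of ER-associated degradation. In mammals, NF-Y occupies the CCAAT portion of the ER stress element while ATF6 contacts its other end.

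The DNA under 5 promoter summits, of the 6 genes with a promoter peak or a high-scoring ranked entry, is printed so that the letters can be read beside the values. The window at Calr held 3 CCAAT boxes, and those at Cnx99A, Ire1, crc and Hrd3 held none. The window of the Xbp1 promoter summit, which held 1 CCAAT, is not printed. Each is the RefSeq sequence of build dm6 on the strand of the gene, 5′ to 3′: Calr at chr3R:9630885-9630985, minus strand; Cnx99A at chr3R:29319691-29319791, minus strand; Ire1 at chr3R:19861410-19861510, minus strand; crc at chr2L:21310352-21310452, plus strand; Hrd3 at chr3R:23758018-23758105, minus strand. Capitals mark CCAAT, read on either strand as CCAAT or ATTGG, and ACGT, the core of Xbp1 and Atf6 sites. The Hrd3 window is cut short where it reaches a UTR, and in it capitals mark a TATAAA read on the opposite strand.
Calr: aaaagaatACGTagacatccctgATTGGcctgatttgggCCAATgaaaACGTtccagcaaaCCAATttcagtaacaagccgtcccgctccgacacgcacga
Cnx99A: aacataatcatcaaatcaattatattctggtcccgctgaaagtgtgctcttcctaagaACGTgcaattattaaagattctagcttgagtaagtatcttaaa
Ire1: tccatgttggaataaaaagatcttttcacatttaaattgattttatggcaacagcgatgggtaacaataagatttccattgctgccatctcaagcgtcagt
crc: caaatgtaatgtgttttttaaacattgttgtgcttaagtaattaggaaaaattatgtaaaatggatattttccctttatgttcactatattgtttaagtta
Hrd3: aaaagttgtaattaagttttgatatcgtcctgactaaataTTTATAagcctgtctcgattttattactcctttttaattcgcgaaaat

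Nf-YA peaks lay at the promoters of 5 of the 10 genes, Xbp1, Hrd3, Cnx99A, Ire1 and crc, where the pooled list had a summit within 500 bp of a start site of the annotation. Among all protein-coding genes the share was 12.5%. Counting the gene body and 5 kb on each side, 6 of the 10 genes had a summit, PEK being the sixth, against 37.5% of all genes. Xbp1, Hrd3 and crc had 2 assigned summits each, Cnx99A, Ire1 and PEK had 1 each, and Hsc70-3, Gp93, Calr and Atf6 had 0. Calr nonetheless had the tallest entry of the 10 genes in the authors' ranked lists, which hold entries at every score. With a single group of 2 replicates and genes chosen with earlier results in view, these counts are given as descriptions and no test was made.

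The count depended on the list. In the authors' conservative list 4 of the genes had a summit within 500 bp, all of these but Ire1, against 11.6% of all genes. In the own thresholded list of replicate 1, which leaves out replicate 2, the count was 3 of 10, Xbp1, Hrd3 and Cnx99A, against 7.54%. In that of replicate 2 it was 4 of 10, the same 3 genes and Ire1, against 9.14%. Xbp1, Hrd3 and Cnx99A were thus called in every thresholded list.

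**Figure D1:**
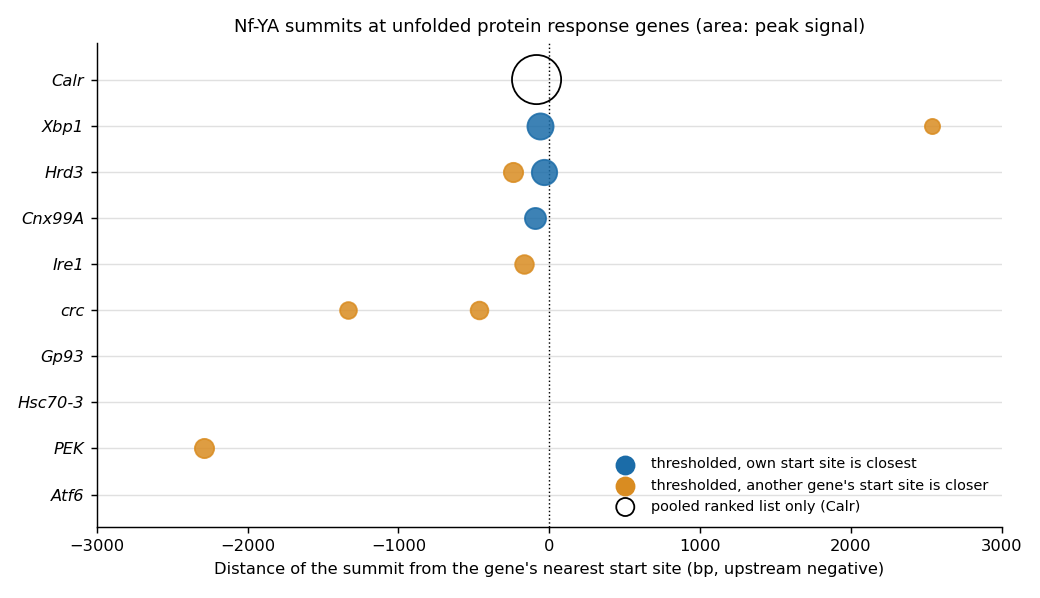
Summits at the 10 genes by distance in bp from the gene's nearest annotated start site, upstream negative, with the area of each circle proportional to the authors' peak signal. Blue circles are pooled thresholded summits closest to the gene itself (3), orange circles those closer to another gene (6), and the open circle is the Calr entry at 84 bp upstream, which stands in the ranked lists only.

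Of the 9 summits, 6 lay within 500 bp of a start site of the gene they were assigned to, but only 3 had it as their closest start site, namely the tallest summit of Xbp1, that of Hrd3 and the single summit of Cnx99A. The other 6 lay closer to a neighbouring gene. All 9 lay within 500 bp of some protein-coding start site, against 1445 of all 3354 summits. The 9 were chosen for lying in or near genes, so these counts are not directly comparable. Of the 9, 4 had start sites of at least 2 genes within that distance (44.4%), against 417 of the 1445 (28.9%). Intergenic sequence held 5 of the summits, introns 3 and the 5′ UTR of a neighbour 1. Upstream of the nearest start site of the assigned gene lay 8 and downstream 1. For these places and sides no share over all peaks is given.

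Among the sensors, Ire1 had a promoter peak called in replicate 2 alone. Its summit at chr3R:19861460 (dm6) lay 169 bp upstream of the single annotated start site of this minus-strand gene (FBgn0261984, chr3R:19853908-19861291), in intergenic sequence. The pooled peak signal, a value of the authors whose scale is not stated, was 89.2, and the signal was 21.4 in the ranked list of replicate 1 and 66 in that of replicate 2. Signals are compared only within a list. The pooled value stood at percentile 51.4 of the 3354 peaks, meaning that 51.4% of them had a signal no higher than this. Ranked among the signals of the same pooled peaks, the entry stood at percentile 8.94 in replicate 1 and 67.1 in replicate 2, a wide gap between the replicates. The replicate 1 entry had a score of 187 and the replicate 2 entry one of 1000, on a scale that ends at 1000 and on which no thresholded peak was below 830. Mrm2, a mitochondrial rRNA methyltransferase gene on the other strand, started 150 bp from the same summit, so the peak lies between both start sites.

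PEK had no summit at its promoter. Its only assigned summit, at chr3R:5467039, lay 2286 bp upstream of PEK (FBgn0037327, chr3R:5458563-5464753, minus strand) in an intron of RpL35A, a ribosomal protein gene whose start site was 62 bp away. The signal there was 94.5 in the pooled list, 54.2 in replicate 1 and 36.2 in replicate 2, and the peak was thresholded in replicate 1 alone. Within 500 bp of the 3 annotated PEK start sites, the tallest entries of the ranked lists had signals of 28.7 in the pooled list, 17.7 in replicate 1 and 22.5 in replicate 2. The pooled score was 127, far under the lowest thresholded score, and the pooled entry lay 188 bp downstream of a start site. The tallest replicate entries lay 197 bp downstream of a start site in replicate 1 and 258 bp upstream of one in replicate 2. Replicate 2 also held a lower entry, with a signal of 6.68, at 195 bp downstream.

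Atf6 was the gene with the least Nf-YA signal. It had 0 summits in its body (FBgn0033010, chr2R:5144733-5154756, plus strand) or within 5 kb, and the nearest thresholded summit was 544787 bp from its start sites. The wide stretch around Atf6 thus also lacked thresholded summits, and whether the low signal belongs to the gene or to the region was not tested. Neither the pooled ranked list nor that of replicate 1 had an entry within 500 bp of either of its 2 start sites. The tallest such entry of replicate 2 lay 12 bp upstream of a start site, with a signal of 18.7 and a score of 71. A lower one, with a signal of 11.9 and a score of 16, lay 25 bp downstream of the outer start site. The tallest pooled entry within 5 kb had a signal of 27.7 and a score of 70, at 2019 bp upstream.

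Of the transcription factors, Xbp1, the bZIP factor made from the mRNA that Ire1 splices, had the tallest assigned summit. It lay at chr2R:21143482, 63 bp upstream of the nearer of 2 start sites 4 bp apart (FBgn0021872, chr2R:21143545-21145750, plus strand). The signal was 175 in the pooled list, 82.7 in replicate 1 and 94.1 in replicate 2. It ranked 520 of 3354 pooled peaks, was thresholded in both replicates with a score of 1000 in each, and the replicate summits lay 10 bp and 30 bp from the pooled one. No other protein-coding gene started within 500 bp. The other summit assigned to Xbp1, at chr2R:21146088, lay beyond the gene's end and 115 bp upstream of Hmg-2, which encodes an HMG-box protein. Its signal was 58.8 in the pooled list, 16.1 in replicate 1 and 45.1 in replicate 2, and with a score of 835 it was close to the lowest thresholded score of 830. It was thresholded in replicate 2 alone and absent from the conservative list.

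The bZIP factor crc, whose mRNA is translated more when eIF2alpha is phosphorylated, had 2 summits, neither closest to crc. Both lay upstream of crc (FBgn0000370, chr2L:21310866-21319527, plus strand), on the side of Mondo, a gene for a glucose-sensing basic helix-loop-helix factor transcribed the other way. The nearer, at chr2L:21310402, lay 464 bp from crc and 352 bp from Mondo, with signals of 80.1 in the pooled list, 37.2 in replicate 1 and 45.4 in replicate 2. The other, at chr2L:21309532, lay 1334 bp from crc in the 5′ UTR of Mondo and 43 bp upstream of a Mondo start site, with 72.3 in the pooled list, 23.7 in replicate 1 and 45.8 in replicate 2. Neither was thresholded in either replicate alone, where the scores ran from 524 to 795, and both were in the conservative list. At 464 bp, the nearer summit was also the one closest to the 500 bp limit, and under a limit of 250 bp crc was not called.

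Of the ER chaperones, Cnx99A, the lectin chaperone calnexin, had a promoter peak in every thresholded list. The summit at chr3R:29319741 lay 97 bp upstream of the outer of 2 start sites (FBgn0015622, chr3R:29315254-29319644, minus strand) in intergenic sequence, with no other protein-coding start site within 500 bp. The signal was 114 in the pooled list, 53 in replicate 1 and 66 in replicate 2. It ranked 1089 of 3354 pooled peaks, scored 1000 in both replicates, and its replicate summits lay 2 bp and 9 bp from the pooled one.

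Calr, which encodes calreticulin, the soluble counterpart of calnexin, had no summit in any thresholded list within 5 kb, and the nearest thresholded summit was 12296 bp from its start site. The ranked lists, however, held an entry at its promoter (FBgn0005585, chr3R:9628691-9630851, minus strand) that was among their tallest. In the pooled ranked list it spanned chr3R:9630792-9631078 with its summit at chr3R:9630935, 84 bp upstream of the start site, and had a signal of 617, rank 30 of 137177 entries. In replicate 1 the signal was 301, rank 24 of 95712, with the summit at the same base. In replicate 2 it was 316, rank 42 of 114785, with the summit 89 bp upstream. The score was 1000 in all 3 lists, and no other protein-coding gene started within 500 bp.

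The Calr entry was 1 of 91 pooled ranked entries, of 3445 at or above the lowest thresholded score (2.64%), that the pooled thresholded list does not hold. Among those 91 it stood in place 3 by signal. The shares were 59 of 1852 (3.19%) in replicate 1 and 64 of 2221 (2.88%) in replicate 2, and the Calr entry was among them in both. Another file, whose role is not stated, is recorded among the sources of the thresholded lists, and its part in the missing entries was not tested. Calling genes from all pooled ranked entries with a score of at least 830, an alternative chosen after the Calr entry was seen, gave 6 of the 10 genes, Calr being the addition, against 12.8% of all genes.

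Hsc70-3, the ER Hsp70 known as BiP, and Gp93, the ER Hsp90 known as GRP94, had no assigned summit of the pooled thresholded list. For Hsc70-3 (FBgn0001218, chrX:11801696-11807117, minus strand, 4 start sites) the nearest was 11491 bp away. Its tallest ranked entries within 500 bp of a start site had signals of 30.2 in the pooled list, 21.7 in replicate 1 and 29.4 in replicate 2, with a pooled score of 61. A taller pooled entry, with a signal of 60.4 and a score of 461, lay just outside the limit at 532 bp upstream. The tallest replicate 1 entry within 5 kb, with a signal of 27.4, lay at 570 bp upstream. The replicate 2 entry of 29.4 lay at 490 bp upstream. Without the 500 bp limit, the tallest Hsc70-3 entries of the 3 lists thus lay close together. For Gp93 (FBgn0039562, chr3R:27948711-27952151, plus strand) the nearest thresholded summit was 25905 bp away. Its tallest promoter entries had signals of 44.6 in the pooled list, 27.2 in replicate 1 and 21.8 in replicate 2, with a pooled score of 245. Within the 500 bp limit the tallest entries of both genes lay at different places in the 3 lists, and none of these promoter scores reached 830. Beyond the end of Gp93, 5022 bp downstream of its start site and nearer to another gene, the own thresholded list of replicate 1 held a peak with a signal of 36.1 and a score of 852 that the pooled list and replicate 2 lacked.

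Hrd3 encodes the adaptor that holds the Hrd1 ubiquitin ligase complex together in ER-associated degradation. It carried 2 summits (FBgn0028475, chr3R:23754623-23758557, minus strand), both in an intron between its 2 start sites. The taller, at chr3R:23758055, lay 38 bp upstream of the inner start site with signals of 165 in the pooled list, 60.7 in replicate 1 and 107 in replicate 2. It ranked 569 of 3354 and was thresholded in both replicates with a score of 1000 in each. The other, at chr3R:23758258, lay 241 bp upstream of that start site and 81 bp from the start of PTPMT1, a gene for a mitochondrial lipid phosphatase on the other strand. Its signal was 95.2 in the pooled list, 30.2 in replicate 1 and 36.9 in replicate 2. Its interval overlaps the thresholded replicate peaks of the taller summit, so it counts as shared, although its own entries scored 113 in replicate 1 and 529 in replicate 2.

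**Figure D2:**
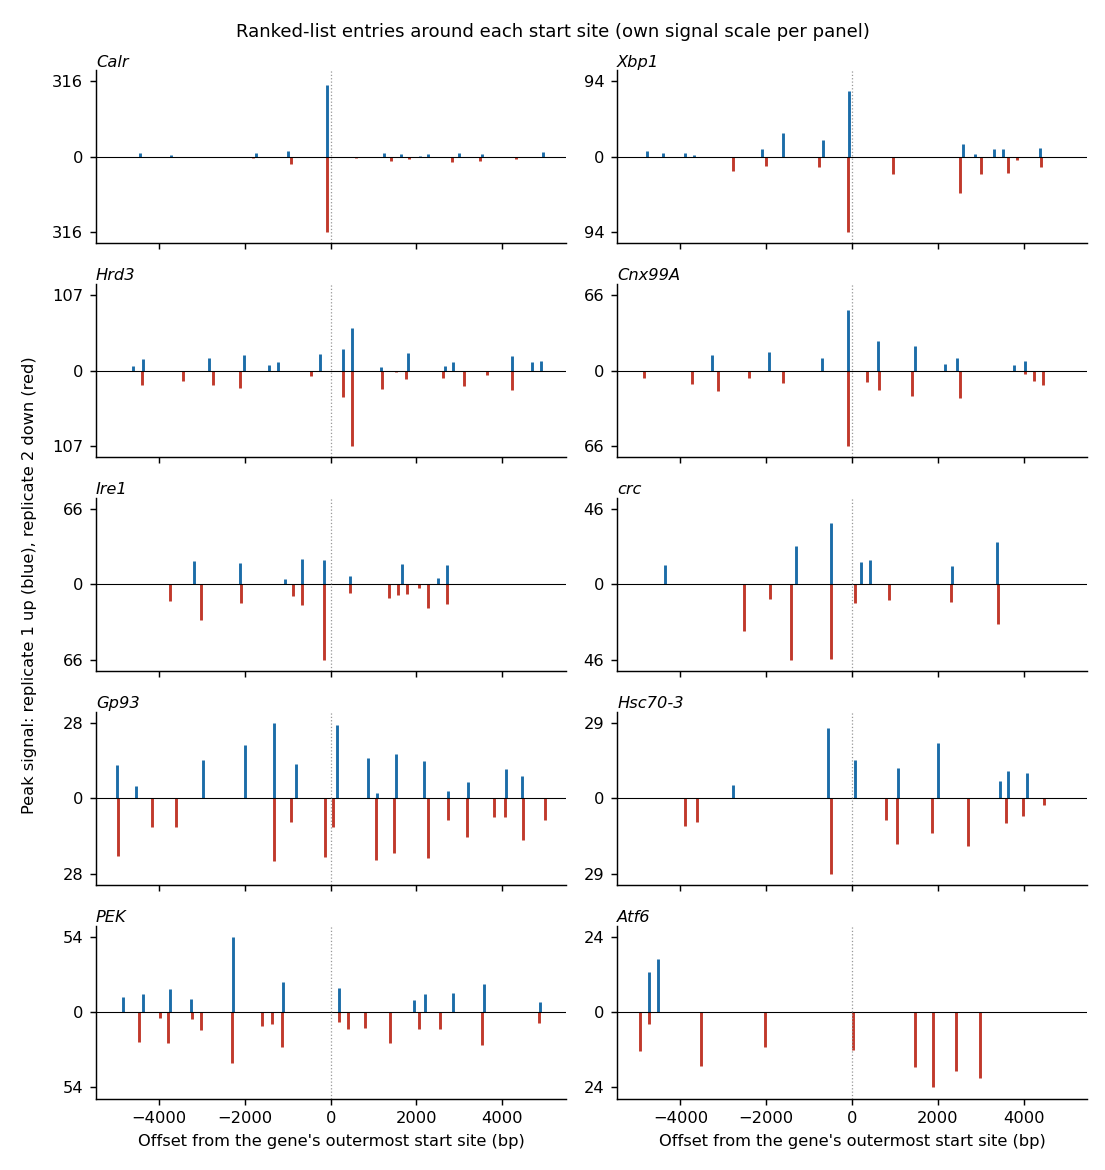
Entries of the ranked lists around the outermost start site of each gene, with the offset in bp on the horizontal axis (upstream negative) and the authors' peak signal on the vertical axis, replicate 1 drawn upward and replicate 2 downward. Each panel has its own scale, from 316 at the top for Calr to 24 for Atf6, and a single tall line in both replicates stands out at Calr, Xbp1, Cnx99A and Hrd3.

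The profiles of the ranked entries showed which promoters had 1 dominant entry in both replicates. At Calr, Xbp1, Cnx99A and Hrd3 the tallest line of either replicate lay at a promoter, which at Hrd3 was that of the inner start site. At Ire1 it did so in replicate 2, while in replicate 1 an entry of 22.4 at 670 bp upstream was level with the promoter entry of 21.4. At Gp93, Hsc70-3 and Atf6 no entry of either replicate exceeded a signal of 36.1 within the body or 5 kb. Each gene had between 8 and 25 pooled entries in that span, since the ranked lists hold many entries of low score.

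Taken by the tallest entry within 500 bp of a start site, 9 of the 10 genes spanned a range from the top to the middle of all genes, and Atf6 had no such entry in the pooled list or in replicate 1. Some pooled ranked entry lay that close to 9 of the 10 genes, all but Atf6, and to 82.9% of all genes. The median of the tallest signal was 89.2 over the 9 genes with an entry and 30.9 over all genes with one in the pooled list. The medians were 37.2 over 9 genes and 17 over all genes in replicate 1, and 55.7 over 10 genes and 19.3 over all genes in replicate 2. Among 13945 genes, Calr ranked 28, Xbp1 393, Hrd3 425, Cnx99A 781, Ire1 1060, crc 1218, Gp93 3066, Hsc70-3 5948 and PEK 6392 by pooled signal. The signals of Hsc70-3 and PEK, 30.2 and 28.7, lay just under the median of the genes with a pooled entry.

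**Figure D3:**
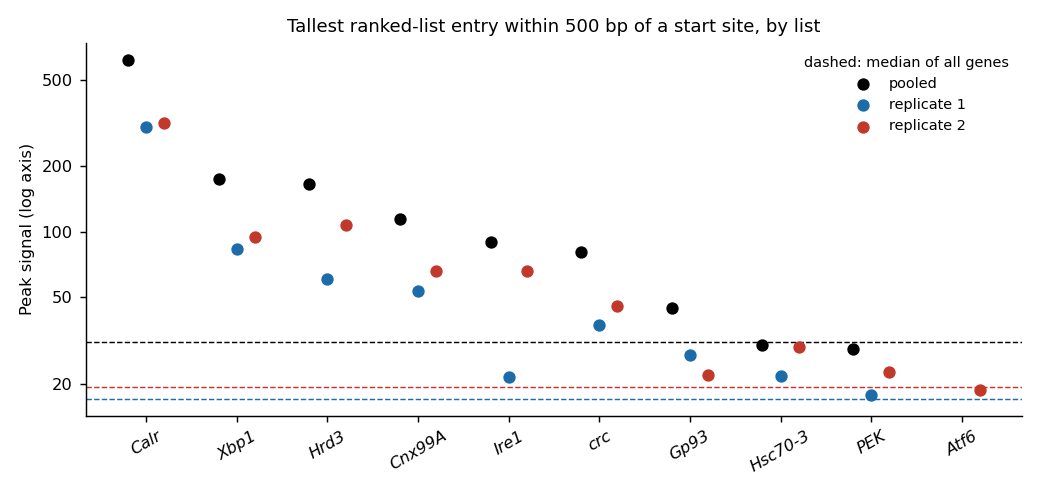
Authors' peak signal (log axis) of the tallest ranked entry within 500 bp of a start site for each of the 10 genes in the pooled list (black), replicate 1 (blue) and replicate 2 (red), with dashed lines at the median of all genes with an entry. Calr at 617, 301 and 316 stands above the other 9 genes, and Atf6 has a point in replicate 2 only.

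The order of the genes was similar in the replicates for the taller entries and not for the lower ones. Calr was the tallest of the 10 genes in both. Xbp1 exceeded Hrd3 in replicate 1 (82.7 and 60.7), whereas Hrd3 exceeded Xbp1 in replicate 2 (107 and 94.1), so these neighbours could not be ordered. Ire1 ranked 3407 among all genes in replicate 1 and 784 in replicate 2, the widest shift among the genes called. Cnx99A (702 and 786) and crc (1200 and 1262) kept nearly the same place.

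**Figure D4:**
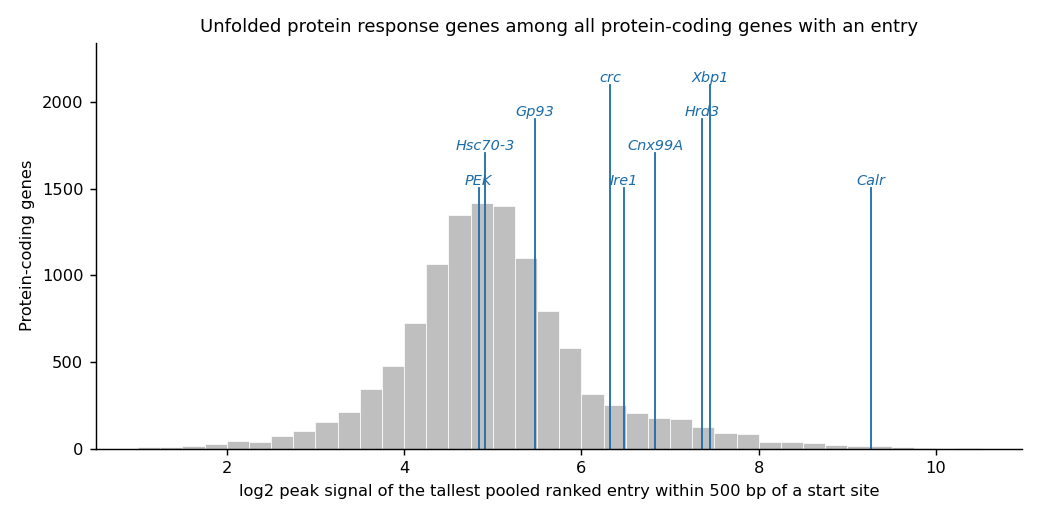
Histogram of the log2 peak signal of the tallest pooled ranked entry within 500 bp of a start site over the 11557 protein-coding genes with such an entry, with a line for each of 9 unfolded protein response genes. PEK and Hsc70-3 lie near the middle, Gp93 on the upper slope, crc, Ire1, Cnx99A, Hrd3 and Xbp1 in the right tail and Calr near its end.

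Compared with all peaks, the 9 assigned summits were of ordinary height. Their median pooled signal was 94.5 and that of all 3354 peaks was 87.4, and their median percentile was 55.2. In the replicates' ranked lists the order was the reverse, with medians of 37.2 for the 9 summits and 40.9 for all peaks in replicate 1, and of 45.8 and 51.5 in replicate 2. Peaks thresholded in both replicates made up 4 of the 9 (44.4%) and 40.5% of all peaks, and those thresholded in neither made up 2 of the 9 (22.2%) and 28.3% of all. The median GC content of the 101 bp around the summit was 29.7% for the 9 and 35.6% for all, with the 9 running from 22.8% at the nearer crc summit to 52.5% at the other.

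**Figure D5:**
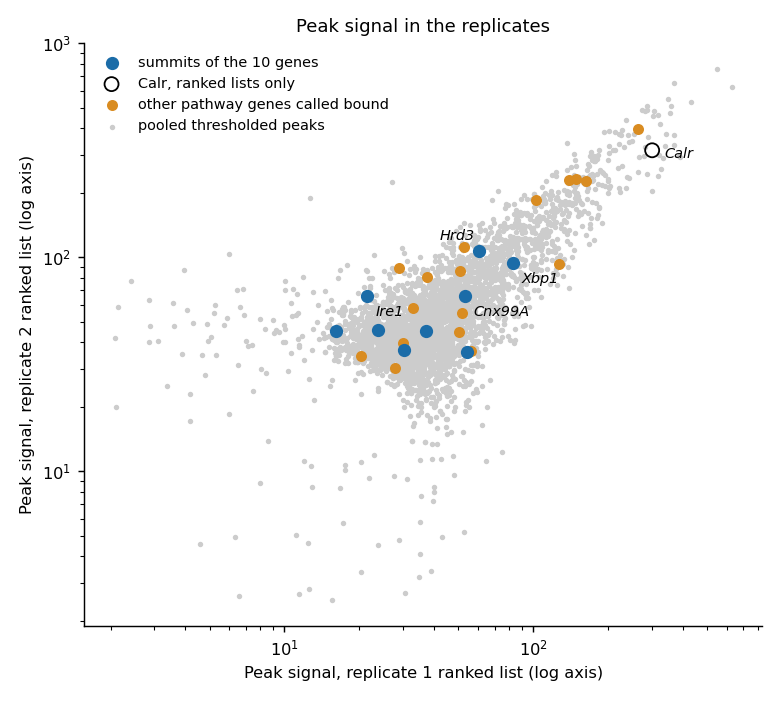
Authors' peak signal in the ranked list of replicate 1 against that of replicate 2 (both log axes), with the summits of the 10 genes in blue, those of other pathway genes called bound in orange, the Calr entry as an open circle and pooled thresholded peaks in grey. Calr, at 301 and 316, lies at the upper right, and Ire1, at 21.4 and 66, lies left of the main cloud's axis.

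CCAAT was sought on both strands within 50 bp of each summit. It was found at 1 of the 9 summits, the promoter summit of Xbp1, with its centre 36 bp away, against 653 of all 3354 summits (19.5%). The longer NF-Y motif, CCAAT preceded by 2 purines and followed by C or G and then a purine, was at 0 of the 9 and at 84 of all (2.5%). The Calr entry, which is not among the 9, held 3 CCAAT boxes with centres 9, 13 and 25 bp from its summit, and 2 of these matched the longer motif. In the printed Calr sequence the boxes are the ATTGG and both CCAAT. Windows with at least 3 CCAAT numbered 10 among the 3354 thresholded summits (0.298%) and 0 among the 30 tallest of them, and windows with at least 2 matches to the longer motif numbered 3 (0.0894%). A match is a string of letters and says nothing of occupancy by itself.

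The mammalian ER stress element, CCAAT followed after any 9 bases by CCACG, was at 0 of the 9 summits and at 1 of all 3354 (0.0298%). Its shorter variant, ATTGG with 1 base of any kind and then CCACG, was at 0 of the 9 and at 0 of all. CCACG alone was at 0 of the 9 and at 8.2% of all. ACGT, the core of Xbp1 and Atf6 sites, was near the Cnx99A summit and the summit of Hrd3 nearer PTPMT1, 2 of 9 against 17.2% of all. The unfolded protein response element TGACGTGG, which contains ACGT, was at 0 of the 9 and at 0.0298% of all. The amino acid response element TGATGNAA, bound by ATF4 in mammals, was at 0 of the 9 and at 1.04% of all.

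Of the general promoter motifs, TATAAA was near 2 of the 9 summits, the taller one of Hrd3 and the one near Hmg-2, against 18.3% of all, and GAGAG was near 1, the crc summit in the 5′ UTR of Mondo, against 13.8%. TATCGATA (0.835% of all summits), CACGTG, which also contains ACGT (1.1%), and GATAAG (4.98%) were at 0 of the 9.

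The promoters themselves, taken from 250 bp upstream to 50 bp downstream of each annotated start site, are longer windows, can be several for a gene and include genes without a peak, so their shares are not comparable with those at summits. CCAAT was in such a window of 6 of the 10 genes, Calr, Xbp1, Ire1, Hsc70-3, Gp93 and Atf6, against 53.3% of all 13945 genes. At Gp93 it lay 55 to 51 bp upstream of the start site, and at Ire1 39 to 35 bp upstream and again downstream, without a CCAAT near the Ire1 summit itself. The longer NF-Y motif was in the promoter of Calr alone among the 10 genes, against 4.55% of all genes. The ER stress element was in 0 of the 10 and in 3 genes of all (0.0215%), TGACGTGG in 0 of the 10 and 0.516% of all, and ACGT in 8 of the 10 and 54.8% of all. CCACG was in 2 of the 10, Atf6 and Ire1, and in 28.8% of all.

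Beyond the 10 genes, 79 other genes of ER stress and the secretory pathway were examined in 5 lists. Of these, 17 (21.5%) had a summit of the pooled thresholded list within 500 bp of a start site and 62 did not, beside the 12.5% of all genes. Replicate 1 alone gave 11, beside 7.54% of all genes, and replicate 2 alone 13, beside 9.14%.

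In the list of signalling and integrated stress response genes, 5 of 20 were called (25%). Atf3, a stress-induced bZIP factor, had signals of 400 in the pooled list, 163 in replicate 1 and 226 in replicate 2, at 212 bp upstream. REPTOR, a bZIP factor restrained by TORC1, had 368, 140 and 230 in the same lists, at 139 bp upstream. Both were thresholded in both replicates and exceeded every thresholded summit of the 10 genes. Gcn2, the eIF2alpha kinase of amino acid starvation, had a pooled signal of 102 at a summit closer to another gene. Thor, the translation repressor 4E-BP, had 91.6 and was thresholded in replicate 1 alone, and BI-1, an ER membrane inhibitor of cell death, had 63.6 and was thresholded in neither replicate.

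Of ER chaperones and folding enzymes, 4 of 18 were called (22.2%). Fkbp14, an ER prolyl isomerase, had signals of 656 in the pooled list, 264 in replicate 1 and 399 in replicate 2, at 106 bp upstream. This was higher than the Calr entry in the pooled list and in replicate 2, and lower than it in replicate 1. The DnaJ-family gene shv had 224 in the pooled list, with the start site of another protein-coding gene also within 500 bp of its summit. GCS2beta, the beta subunit of glucosidase II, had 142 at a summit closer to another gene. Ero1L, the oxidase of disulfide formation, had 53.4 and was thresholded in neither replicate.

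Of the genes of ER-associated degradation other than Hrd3, 3 of 14 were called (21.4%), Faf2 with a pooled signal of 169, Herp with 107 and Edem2 with 97.4, thresholded in replicate 2 alone, and each had the start site of another protein-coding gene within 500 bp of its summit. Of the translocon, signal peptidase and signal recognition particle list, 5 of 19 were called (26.3%). TRAM had the highest pooled signal there with 379, followed by Trp1 with 284, Spase22-23 with 121, Sec61alpha, the channel subunit, with 117 and SsRbeta with 56.9. The summits of Spase22-23 and Sec61alpha were closer to another gene and thresholded in replicate 2 alone, and that of SsRbeta, 491 bp upstream, was thresholded in neither replicate. In the list of the COPII coat, which forms transport vesicles at ER exit sites, 0 of 8 were called.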

How the data were processed

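The authors deposited ChIP-seq peak lists in dm6 coordinates, per the file records: for each replicate and for both pooled, a ranked list and a list thresholded on the irreproducible discovery rate, and a conservative list. The aligner and the peak caller are not given in the sources used here. The signal of a peak is the authors' deposited value, on an unstated scale. The deposited score ends at 1000, and its lowest value in the thresholded lists was 830. The 16 columns of unnamed inputs were not used. The 8 peak files matched the checksums in their records. Library depth is unknown, so no interval is given.

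Start sites came from Ensembl BDGP6.54 and sequence from the RefSeq genome of the same build. Genes with a summit at most 500 bp from a start site were called bound. Peak overlap needed 1 bp. Motifs were sought in 101 bp around summits. The 10 genes, the other lists and the motifs were chosen with earlier results of these data known. All 10 genes are named, and of the other lists each gene called bound, and neighbours with a start site within 500 bp of an assigned summit or holding it. Of 80 other symbols 1 was not matched. Alternatives were other lists, distances, windows and overlaps. The code was tested on simulated data. Python 3.11.15, numpy 2.4.6, pandas 2.3.3 and matplotlib 3.10.9 were used.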

Additional observations from a re-analysis of the deposited data

How the results depend on the processing

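The genes bound, 5 of 10 in the pooled thresholded list, numbered 3 to 4 with either replicate left out, 4 in the conservative list, in the upper 50% of peaks by signal and within 250 bp, 5 within 1000 bp, and 6 from ranked entries at the minimum score, the alternative chosen after seeing the data. The shares of all genes were 12.5% in the pooled list, 7.54% to 9.14% in the replicates, 11.6% in the conservative list and 12.8% from ranked entries. For the upper 50%, 250 bp and 1000 bp no such share is given, so those counts cannot be set against all genes. The assigned summits numbered 9 of 3354 peaks in the pooled list, 5 of 1793 in the list of replicate 1 and 6 of 2157 in that of replicate 2. The replicate lists are shorter, so the lower counts do not by themselves show a lower share. With either replicate left out the other pathway genes bound numbered 11 to 13 in place of 17. The median percentile of the assigned summits, 55.2, ranged from 44.3 to 50.2 with either replicate left out, and was 52.4 in the conservative list, 23.5 in the upper 50%, 53.7 with 2 kb around the gene body, 53.3 with 10 kb, 42.5 by the signal of the replicate 1 ranked list and 41.5 by that of replicate 2. The value for the upper 50% was ranked among the kept peaks alone, so it is lower by construction and not comparable with 55.2. The values for the conservative list and with either replicate left out were likewise ranked among the peaks of each list alone. They cover 7 summits in the conservative list, 5 in replicate 1 and 6 in replicate 2, so they are not directly comparable with 55.2 either. The cause of these and the other shifts was not tested. Assigned summits with a CCAAT box numbered 1 of 9 within 50 bp, beside 19.5% of all summits. They numbered 0 of 9 within 25 bp (11% of all) and 1 of 9 within 100 bp (35.1% of all). With the ranked entries they numbered 2 of 10, Calr being the addition. Beside this stand 19.5% of the 3354 thresholded summits and 13.2% of the 91 ranked entries that this alternative adds. Requiring 50% of the shorter peak, or the summit inside the replicate peak, left 3 of 4 summits shared by both replicates. The percentiles of single summits gave 25 values under the replicates' and conservative lists. Of these, 16 moved by less than the standard deviation of that summit's 2 replicate percentiles, and 9 by more. That standard deviation comes from replicate values that are themselves among the 25, so these counts are no independent measure of stability. No paired analysis was possible because there was 1 group. Unknown depth limits what the low entries at PEK, Hsc70-3, Gp93 and Atf6 can show.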

Other observations

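The 91 pooled ranked entries at or above the lowest thresholded score that the thresholded list does not hold were counted on each chromosome arm. Arm 3R, which carries Calr, had 57 of them, 2L had 25, 2R had 5, 3L had 4, and chromosome 4 and X had 0 each. Each arm's share of all entries at that score is not given, so these counts alone do not show whether the spread was uneven. Counting these entries added 42 genes to the 1737 with a summit within 500 bp of a start site. Of the 10 unfolded protein response genes Calr was added, and of the 79 other pathway genes 0 were added. At least 1 CCAAT box lay within 50 bp of 12 of the 91 (13.2%), at least 3 lay at 1 (1.1%), which is the Calr entry, and 2 (2.2%) had the longer NF-Y motif.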
